A study of Mus musculus with 16 samples.

Results

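Mitochondrial fatty acid oxidation was described through 10 genes of its core, Cpt1a, Cpt1b, Cpt2, Acadl, Acadm, Acadvl, Hadha, Hadhb, Decr1 and Eci1, in the epididymal fat pad of the mouse, a white adipose depot (eWAT). They were chosen by name, with earlier results of these data known. All 10 were found by symbol among the 20101 genes of the expression table. Expression was measured by RNA-seq in 16 libraries, 4 in each of 4 groups of mice 21 weeks old: KO-labelled and WT-labelled mice on a high-fat diet (HFD, 60% fat, fed from 5 weeks of age), and KO-labelled and WT-labelled mice on chow (5% fat). The titles write KO, the genotype field of the same samples names a knockdown of ApoA4, and the labels give neither strain nor sex nor how the allele was made. The series asks what apolipoprotein A-IV does to inflammation of white fat.

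Beta-oxidation shortens fatty acids inside mitochondria and passes the electrons to the respiratory chain. Long-chain acyl groups enter as carnitine esters: CPT1 on the outer membrane makes the ester, and CPT2 on the inner membrane turns it back into acyl-CoA. Each round then starts with an acyl-CoA dehydrogenase suited to the chain length and goes on, for long chains, in the trifunctional protein of HADHA and HADHB. Unsaturated fatty acids need further enzymes, among them the dienoyl-CoA reductase DECR1 and the enoyl-CoA isomerase ECI1. White adipocytes mainly store and release fat, and their oxidative capacity is low beside that of brown fat or liver.

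Values are FPKM, fragment counts scaled to transcript length and library size, so levels can be set side by side between genes. Sums over genes ran from 413167 to 468186 FPKM per library. Adipoq, the adipocyte hormone adiponectin, stood between 207 and 4573 FPKM in the 16 libraries. Apoa4, the targeted gene, went against the labels: it stood at 8.69, 9.63, 7.23 and 4.93 FPKM in the HFD KO libraries, 0.29, 0, 0.08 and 0 FPKM in HFD WT, 3.59, 1.96, 5.96 and 5.29 FPKM in chow KO and 0.29, 0.25, 0.23 and 0.09 FPKM in chow WT. KO and WT therefore stand for the library labels throughout. Of the KO-labelled libraries, 3 held genes of the epididymis: a list of 10 summed to 12552 FPKM in the second chow KO library, 5495 FPKM in the fourth HFD KO library and 343 FPKM in the second HFD KO library. The sum lay between 0.26 and 40.4 FPKM everywhere else. The same HFD KO replicate 2 stood apart in other markers. Ucp1, the uncoupling protein of brown and beige fat, was 67.2 FPKM there against at most 2.10 FPKM elsewhere, Ckm, the muscle creatine kinase, 19.6 against at most 0.20 FPKM, and Myh11, a smooth muscle myosin, 268 against at most 24.6 FPKM. Mb and Actn3, also skeletal muscle markers, were not highest there. Mb was 0.59 FPKM, against 6.28 FPKM in HFD KO replicate 4, and Actn3 0.75 FPKM, against 3.42 FPKM in chow KO replicate 1.

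The diet changed cell type markers along with the members. Of 15 adipocyte markers, 11 fell and 0 rose on HFD in KO and 10 fell and 0 rose in WT. Their summed level was 4419 to 16692 FPKM in HFD KO and 6995 to 21581 FPKM in HFD WT, against 19012 to 44392 FPKM in chow KO and 35594 to 38021 FPKM in chow WT. Of 10 macrophage markers, 9 rose and 1 fell in KO, and 8 rose and 1 fell in WT. They summed to 1930 to 7427 FPKM in HFD KO and 1540 to 6604 FPKM in HFD WT, against 720 to 876 FPKM in chow KO and 896 to 948 FPKM in chow WT. In bulk tissue, fewer cells of a type and less RNA per cell cannot be told apart, and the part of these shifts in the members' values was not tested other than by the correlations given further on.

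On HFD the members moved in both directions. Cpt1a, the gate of entry, and Hadha, of the long-chain steps, rose in both genotypes, while Eci1, for unsaturated fat, fell in both. Differences are of log2(FPKM + 1) and were called at a Benjamini-Hochberg adjusted p under 0.05 in limma over all 12667 tested genes. In KO, 3 of 10 members rose (Cpt1a, Cpt1b and Hadha) and 2 fell (Acadvl and Eci1), where 38.9% of all tested genes were called, 23.5% higher and 15.3% lower. In WT, 2 rose (Cpt1a and Hadha) and 1 fell (Eci1), where 41.9% of all genes were called, 24.6% higher and 17.2% lower. With 5 and 3 of 10 called, the members are near those shares. Cpt1b passed the filter on low values only through the HFD libraries where it was high, and with no filter it was not called in KO (limma adjusted p = 0.0785). Of the 9 members above the minimum in all libraries, 4 were called in KO and 3 in WT. Without chow KO replicate 2 and HFD KO replicate 4, 2 members rose (Cpt1a and Hadha) and 4 fell (Acadm, Acadvl, Decr1 and Eci1) in KO. Calls over all 12667 tested genes went up as well, from 4922 to 6257 in KO. Leaving out HFD KO replicate 2 as well, 1 rose and 4 fell in KO, and in WT 3 rose and 2 fell, with Cpt1b and Acadvl added. That fit called 6346 of all tested genes in KO and 6435 in WT, where the main fit called 5304 in WT. The median difference of the 10 members was -0.25 in KO and -0.12 in WT, beside 0.08 and 0.06 over all tested genes. With quantile normalization those all-gene medians were -0.07 in KO and -0.04 in WT. Of the genes called in KO, 2979 were higher and 1943 lower, against 2279 and 3105 with quantile normalization and 2604 and 2617 with median-of-ratios scaling. In WT the split was 3121 higher and 2183 lower, against 2493 and 2953 with quantile normalization.

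**Figure D1:**
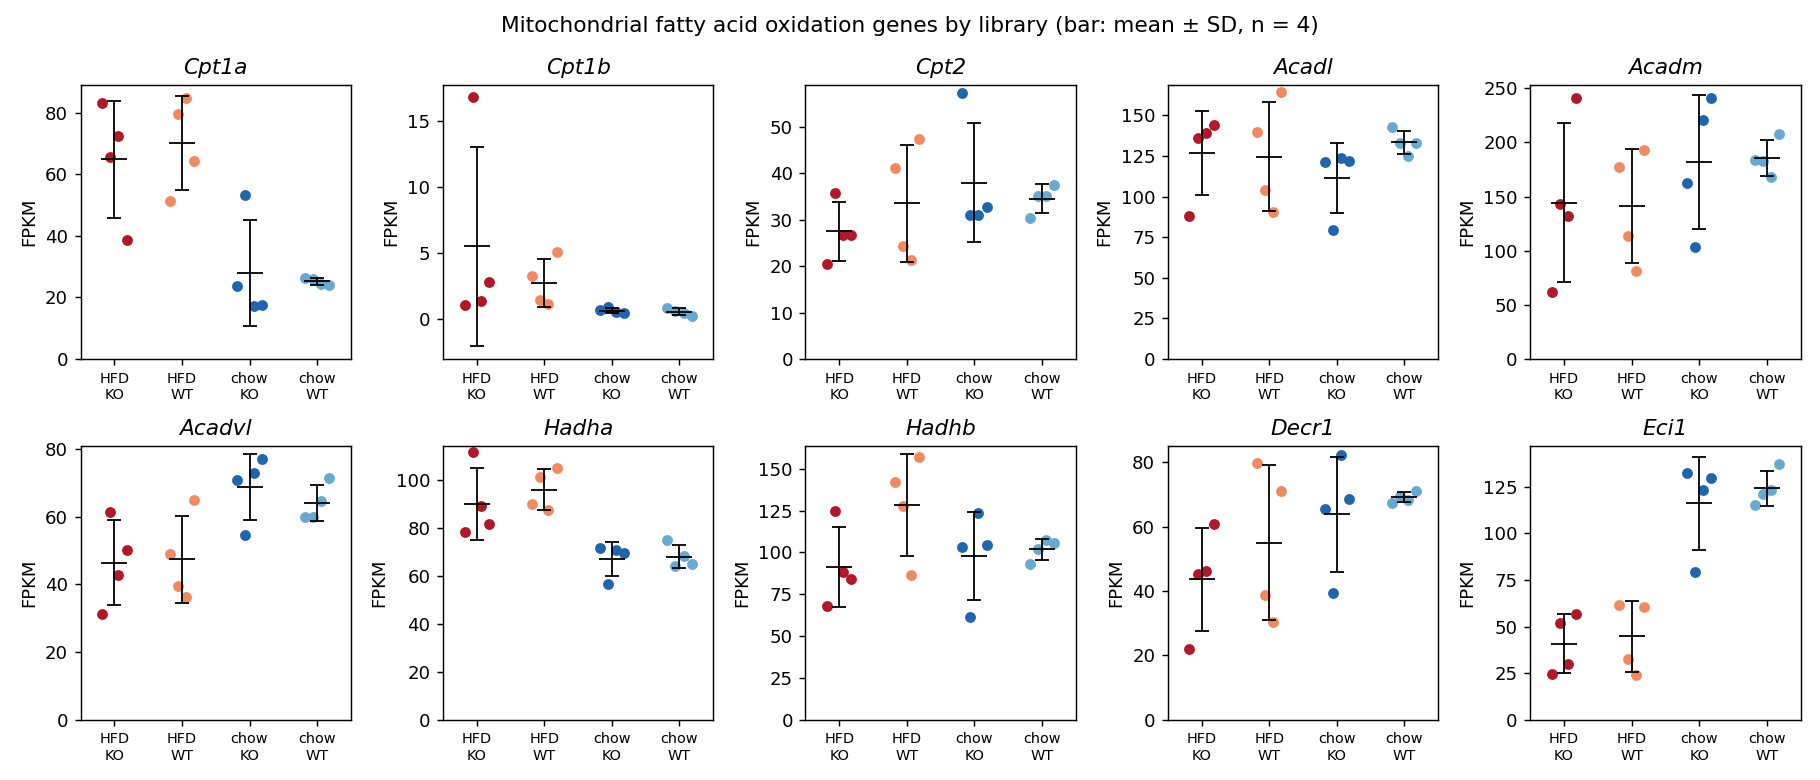
FPKM of each member in every library (points) with the group mean and SD (bars, n = 4), HFD KO, HFD WT, chow KO and chow WT running left to right, with 1 vertical scale per gene and the lower SD bar of Cpt1b in HFD KO reaching below 0. Eci1 shows no overlap between diets (HFD libraries at 24.3 to 61.4 FPKM, chow libraries at 79.1 to 137 FPKM), and nor do Hadha and Cpt1b. The share of all tested genes without such overlap was not computed. Single libraries stand out in Cpt1b (16.8 FPKM) and in Cpt1a on chow (53.1 FPKM).

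Cpt1a, the carnitine palmitoyltransferase 1 isoform found most widely outside muscle (Entrez gene 12894, GRCm38 chr19:3322334-3385733, plus strand), rose in both genotypes in each of the 29 settings tried. Its level was 83.2, 65.5, 72.2 and 38.5 FPKM in HFD KO, 51.2, 79.6, 84.8 and 64.4 FPKM in HFD WT, 23.6, 53.1, 17.2 and 17.4 FPKM in chow KO and 26.2, 26.1, 24.3 and 24.2 FPKM in chow WT. All HFD WT libraries lay above all chow WT libraries, and the share of all tested genes that do so was not computed. In KO the groups overlapped through chow KO replicate 2, one of the libraries with epididymal genes, and HFD KO replicate 4, another. The difference was 1.30 in KO (SE 0.306, limma adjusted p = 0.00461) and 1.41 in WT (SE 0.306, limma adjusted p = 0.00228). Without those 2 libraries it was 1.88 in KO (limma adjusted p = 1.91e-05). Cpt1a stood 9th of the 10 members by mean FPKM in both chow groups and 5th in both HFD groups.

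Cpt1b, the muscle isoform of the same enzyme (Entrez gene 12895, chr15:89416405-89425863, minus strand), had the lowest level of the 10 in all 4 groups. It was 1.10, 16.8, 1.38 and 2.84 FPKM in HFD KO, 3.29, 1.44, 1.19 and 5.08 FPKM in HFD WT, 0.73, 0.91, 0.53 and 0.49 FPKM in chow KO and 0.90, 0.65, 0.45 and 0.29 FPKM in chow WT. All 8 HFD libraries were above all 8 chow libraries, and the share of all tested genes that separate in this way was not computed. It passed the minimum of 1 FPKM only through the HFD libraries, so it had to differ between diets to be tested; the other 9 members were above that minimum in all 16 libraries. The difference was 1.38 in KO (SE 0.518, limma adjusted p = 0.0471) and 1.14 in WT (SE 0.518, limma adjusted p = 0.0891). The KO value rests on HFD KO replicate 2, which also held the Ucp1, Ckm and Myh11 levels given above: without it, the difference in KO was 0.69 (limma adjusted p = 0.102) and that in WT, its own libraries unchanged, passed with a limma adjusted p of 0.00742. Over 28 settings Cpt1b was called 9 times in KO and 4 times in WT. The exons of Cpt1b share 2744 bases with Gm44502, a gene on the same strand that spans Cpt1b and reaches beyond it, so its value is uncertain at these low levels.

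Cpt2, the inner-membrane transferase (Entrez gene 12896, chr4:107903981-107923610, minus strand), averaged 27.5 ± 6.29 FPKM in HFD KO, 33.5 ± 12.7 FPKM in HFD WT, 38.0 ± 12.8 FPKM in chow KO and 34.5 ± 3.04 FPKM in chow WT (SD, n = 4 each). It did not pass in either diet comparison, with differences of -0.43 in KO (SE 0.253, limma adjusted p = 0.192) and -0.11 in WT (SE 0.253, limma adjusted p = 0.744). The ratio of Cpt1a to Cpt2 within a library stood at 4.06, 1.83, 2.7 and 1.44 in HFD KO, 1.25, 3.26, 4.00 and 1.36 in HFD WT, 0.413, 1.71, 0.553 and 0.534 in chow KO and 0.865, 0.743, 0.690 and 0.644 in chow WT. All 4 HFD WT libraries were above all 4 chow WT libraries, and in KO the groups overlapped through chow KO replicate 2.

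The 3 acyl-CoA dehydrogenases, which take the first step of each round, gave 1 call on HFD, Acadvl in KO. Acadm, the medium-chain enzyme (Entrez gene 11364, chr3:153922357-153944632, minus strand), was the highest member in all 4 groups. It had 62.0, 143, 132 and 241 FPKM in HFD KO, 177, 114, 81.0 and 193 FPKM in HFD WT, 163, 103, 221 and 241 FPKM in chow KO and 183, 183, 168 and 208 FPKM in chow WT. The HFD libraries of both genotypes were widely spread and overlapped the chow libraries. The difference was -0.41 in KO (limma adjusted p = 0.397) and -0.47 in WT (limma adjusted p = 0.326). Without chow KO replicate 2 and HFD KO replicate 4 it was -0.95 in KO and passed (limma adjusted p = 0.0321).

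Acadl, the long-chain enzyme (Entrez gene 11363, chr1:66830839-66863277, minus strand), averaged 127 ± 26.1 FPKM in HFD KO, 125 ± 33.7 FPKM in HFD WT, 112 ± 21.6 FPKM in chow KO and 133 ± 7.25 FPKM in chow WT (SD, n = 4 each). Its differences of 0.18 in KO and -0.14 in WT were smaller than their SE of 0.207. Acadvl, the very-long-chain enzyme of the inner membrane (Entrez gene 11370, chr11:70010183-70015411, minus strand), stood at 31.3, 61.5, 42.8 and 50.0 FPKM in HFD KO, 49.0, 39.5, 36.2 and 64.8 FPKM in HFD WT, 70.7, 54.7, 72.8 and 77.0 FPKM in chow KO and 59.8, 60.0, 64.7 and 71.4 FPKM in chow WT. It fell in KO by 0.59 (SE 0.202, limma adjusted p = 0.0323) and missed the threshold in WT at -0.46 (SE 0.202, limma adjusted p = 0.0811). In KO the call was lost without HFD KO replicate 1, at -0.42 (limma adjusted p = 0.114), and without any one of HFD KO replicate 3 and chow KO replicates 1, 3 and 4, as well as with only the KO libraries in the fit (limma adjusted p = 0.0708). Acadvl shares 1151 exon bases with Dvl2, on the opposite strand at 3.10 to 8.34 FPKM and the labels do not say whether reads kept their strand.

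Hadha and Hadhb encode the alpha and beta subunits of the trifunctional protein and lie head to head on chromosome 5 (Hadha, Entrez gene 97212, chr5:30118304-30155162, minus strand; Hadhb, Entrez gene 231086, chr5:30155248-30184593, plus strand; GENCODE M21). In RefSeq their starts are 272 bases apart, so the 250 bases before each start share 228 bases. GENCODE M21 places the Hadha start at 30155162, inside both windows, and the Hadhb start at 30155248, inside its own. The window before Hadhb is shown because the subunits of 1 protein, with this stretch between them, differed in their calls on HFD. It is chr5:30155003-30155252 on the plus strand, from RefSeq on GRCm38.p6, and capitals mark the GC box GGGCGG on either strand.
Hadhb promoter: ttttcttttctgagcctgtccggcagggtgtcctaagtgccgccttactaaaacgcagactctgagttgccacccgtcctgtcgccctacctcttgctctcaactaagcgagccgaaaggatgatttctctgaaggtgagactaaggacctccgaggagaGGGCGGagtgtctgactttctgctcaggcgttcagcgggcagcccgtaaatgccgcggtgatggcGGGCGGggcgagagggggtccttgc
The plus-strand window holds 2 GC boxes, and the minus-strand window before Hadha holds 1 of them. Neither holds TATAAA or CCAAT on either strand.

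Hadha stood at 78.4, 112, 89.3 and 81.5 FPKM in HFD KO, 89.9, 101.2, 87.6 and 105 FPKM in HFD WT, 71.8, 56.7, 70.9 and 69.7 FPKM in chow KO and 74.9, 64.1, 68.4 and 65.1 FPKM in chow WT. Every HFD library lay above every chow library, and how many of all tested genes do so was not computed. It rose by 0.41 in KO (SE 0.125, limma adjusted p = 0.0181) and by 0.49 in WT (SE 0.125, limma adjusted p = 0.00651). In KO the call was lost without HFD KO replicate 2, at 0.30 (limma adjusted p = 0.0560), and with median-of-ratios scaling, also at 0.30 (limma adjusted p = 0.0930). It was lost as well with only the KO libraries in the fit (limma adjusted p = 0.0803) and, at 0.24, without the 3 libraries with epididymal genes (limma adjusted p = 0.134).

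Hadhb had 67.7, 124, 88.5 and 84.2 FPKM in HFD KO, 142, 128, 86.4 and 157 FPKM in HFD WT, 103, 61.2, 123 and 104 FPKM in chow KO and 93.1, 102, 107 and 105 FPKM in chow WT. The diets overlapped in both genotypes. The difference was -0.09 in KO (SE 0.229, limma adjusted p = 0.778) and 0.30 in WT (SE 0.229, limma adjusted p = 0.318). The ratio of Hadha to Hadhb, a test of whether the subunits moved apart, was 1.16, 0.897, 1.01 and 0.968 in HFD KO, 0.632, 0.793, 1.01 and 0.669 in HFD WT, 0.697, 0.926, 0.575 and 0.668 in chow KO and 0.804, 0.627, 0.639 and 0.618 in chow WT. On the log2 scale the ratio differed by 0.51 in KO (two-sided exact permutation p = 0.0571) and by 0.19 in WT (exact permutation p = 0.286). The unequal calls of the subunits are therefore not a difference between them that passed a test.

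Of the enzymes for unsaturated fatty acids, Eci1 fell in both genotypes. Its difference was the largest in size of the 10 members on the log2(FPKM + 1) scale over all libraries. That of Cpt1b was larger with a pseudocount of 0.1, at 2.04 in KO and 1.94 in WT, and in KO with one of 0.5, at 1.66. Eci1, which shifts the unsaturated bond to where the next enzyme can use it (Entrez gene 13177, chr17:24426641-24439348, plus strand), had 24.8, 51.9, 29.7 and 57.0 FPKM in HFD KO, 61.4, 32.8, 24.3 and 60.7 FPKM in HFD WT, 133, 79.1, 123 and 130 FPKM in chow KO and 115, 121, 123 and 137 FPKM in chow WT. Every HFD library was below every chow library, again without a share over all tested genes, which was not computed. It fell by 1.54 in KO (SE 0.307, limma adjusted p = 0.00172) and by 1.55 in WT (SE 0.307, limma adjusted p = 0.00125). In rank among the members it was 2nd in chow KO and 3rd in chow WT, and 8th in both HFD groups.

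Decr1, which reduces the conjugated bonds left by polyunsaturated fatty acids (Entrez gene 67460, chr4:15917240-15945507, minus strand), had 22.1, 45.3, 46.2 and 60.8 FPKM in HFD KO, 79.6, 38.9, 30.4 and 71.2 FPKM in HFD WT, 65.3, 39.5, 82.2 and 68.7 FPKM in chow KO and 67.4, 69.5, 68.4 and 71.1 FPKM in chow WT. The HFD libraries spread over the chow range in both genotypes. The difference was -0.58 in KO (SE 0.325, limma adjusted p = 0.172) and -0.43 in WT (SE 0.325, limma adjusted p = 0.304). Without chow KO replicate 2 and HFD KO replicate 4, that in KO was -0.98 and passed (limma adjusted p = 0.0267).

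Eci1 was also set against Decr1 in the same library. The ratio of Eci1 to Decr1 was 1.12, 1.15, 0.643 and 0.937 in HFD KO, 0.771, 0.843, 0.799 and 0.854 in HFD WT, 2.03, 2.01, 1.5 and 1.89 in chow KO and 1.71, 1.74, 1.80 and 1.93 in chow WT. No HFD library reached the lowest chow value. The log2 ratio differed by -0.97 in KO and by -1.14 in WT, each with a two-sided exact permutation p of 0.0286, the smallest that 4 against 4 libraries can give. The ratio of Cpt1a to Cpt2 differed by 1.78 in KO (exact permutation p = 0.0571) and 1.57 in WT (exact permutation p = 0.0286), and that of Cpt1a to Cpt1b by -0.84 (exact permutation p = 0.429) and -0.69 (exact permutation p = 0.343). The 4 ratios were picked after the levels had been seen and give 8 tests, of which 0 pass after adjustment over the 8 (lowest adjusted p = 0.0762 by exact permutation). A test at the smallest possible p cannot pass that adjustment unless several others reach it too. No conclusion is therefore drawn from the adjusted values.

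**Figure D2:**
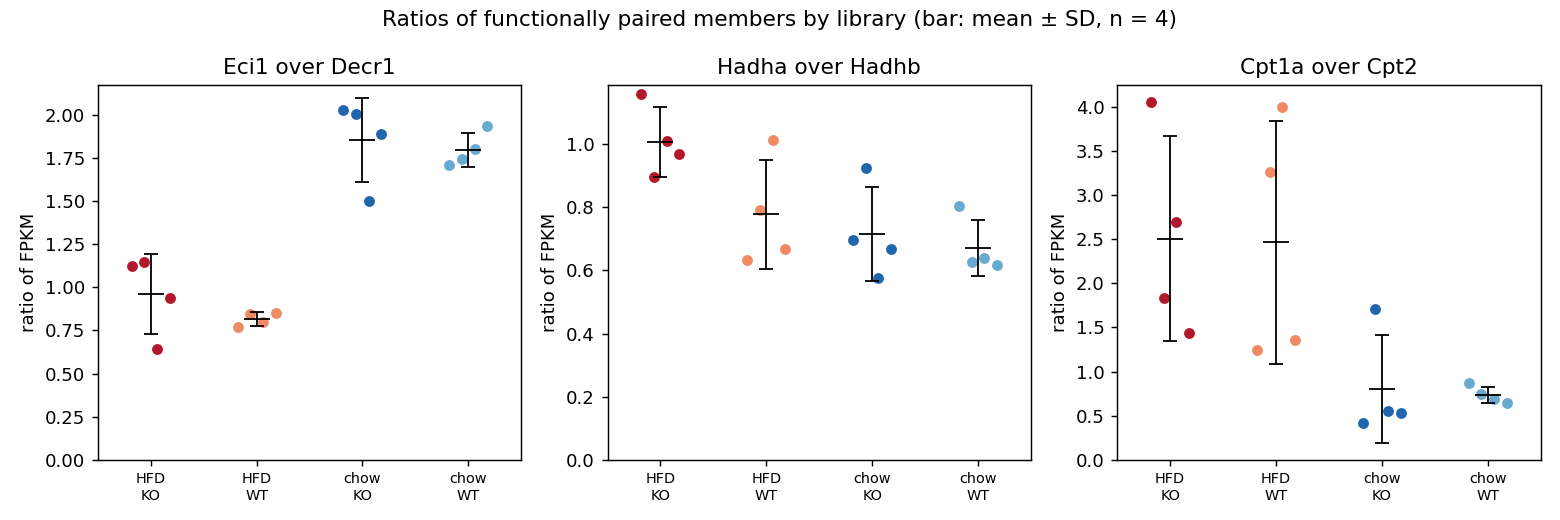
Ratios of FPKM between members within each library (points), with mean and SD (bars, n = 4), for Eci1 over Decr1, Hadha over Hadhb and Cpt1a over Cpt2, with HFD KO, HFD WT, chow KO and chow WT from left to right. The Eci1 over Decr1 ratio shows the diets apart (0.643 to 1.15 on HFD, 1.5 to 2.03 on chow), while the other ratios overlap between diets in KO.

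The promoter windows of Cpt1a and Eci1 are shown because these members were called in opposite directions in both genotypes in each of the 29 settings. The windows are the 250 bases before the RefSeq start on GRCm38.p6, chr19:3323051-3323300 for Cpt1a and chr17:24426433-24426682 for Eci1, both on the plus strand. GENCODE M21 places the starts earlier, at 3322334 for Cpt1a and 24426641 for Eci1. By those starts the whole Cpt1a window and the end of the Eci1 window lie inside the gene. Capitals mark GGGCGG and AGGTCA, the hexamer that nuclear receptors bind, on either strand.
Cpt1a promoter: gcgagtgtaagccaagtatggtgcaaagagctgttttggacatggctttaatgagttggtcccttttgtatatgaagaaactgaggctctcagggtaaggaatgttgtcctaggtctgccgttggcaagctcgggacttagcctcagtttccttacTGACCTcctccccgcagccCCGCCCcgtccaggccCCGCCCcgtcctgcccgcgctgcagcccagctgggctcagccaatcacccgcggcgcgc
Eci1 promoter: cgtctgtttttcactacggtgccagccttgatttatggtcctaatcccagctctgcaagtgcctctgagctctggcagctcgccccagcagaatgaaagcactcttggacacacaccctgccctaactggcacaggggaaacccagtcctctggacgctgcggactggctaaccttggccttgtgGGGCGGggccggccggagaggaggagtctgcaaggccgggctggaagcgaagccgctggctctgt
Cpt1a holds 2 GC boxes and 1 AGGTCA hexamer, and Eci1 holds 1 GC box and no such hexamer. Of the 8 members with a promoter entry (Cpt1b and Decr1 had none), 6 hold GGGCGG, as do 32.7% of all 32851 promoter windows of that length, and 3 hold AGGTCA, as do 14%. The motif AGGNCANAGGNCA, a direct repeat of the kind that PPAR and RXR receptors bind, is in 0 of 8 and in 0.338% of all windows. CCAAT is in 1 of 8 and 33.8%, and TATAAA in 0 of 8 and 12.4%. These are matches of letters on both strands and say nothing of whether a factor binds.

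**Figure D3:**
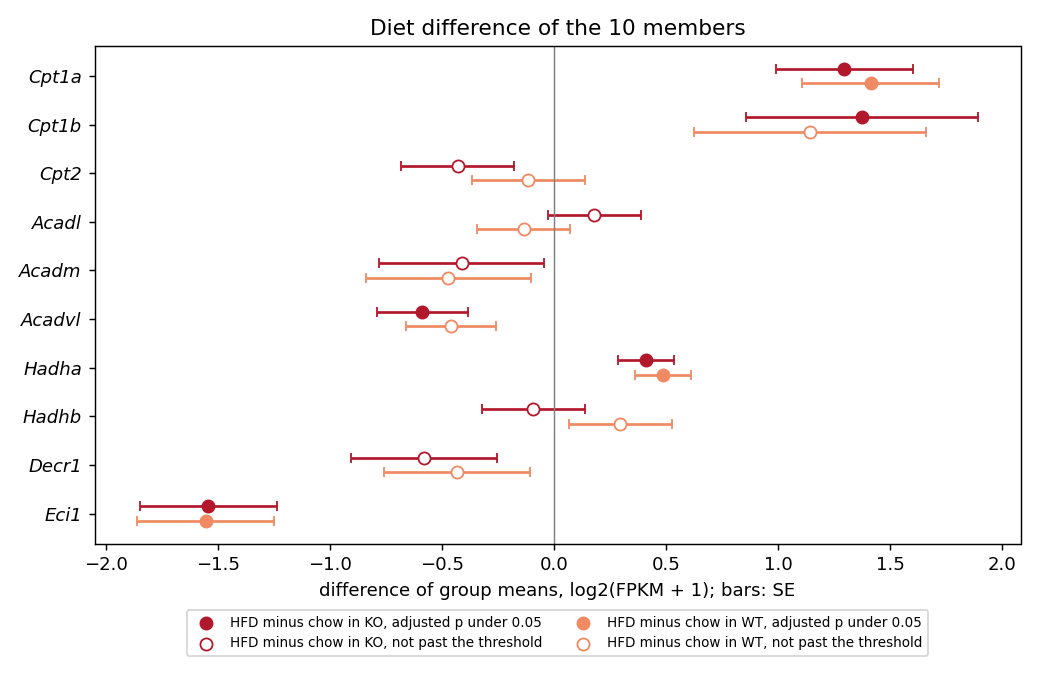
Difference between HFD and chow in log2(FPKM + 1) for each member with its SE, in KO and in WT, with members called by limma marked. Cpt1a, Cpt1b and Hadha lie to the positive side and Eci1 farthest to the negative side (-1.54 in KO, -1.55 in WT), with the same sign in both genotypes for 8 of 10 members. The share of all tested genes with the same sign was not computed.

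Between KO and WT no member was called on either diet. On HFD, 0 of 10 members passed in limma, where 0.0316% of all tested genes did (4 genes), and 0 of 10 had an unadjusted p under 0.05 against 1500 of 12667 genes. Hadhb came nearest, at 67.7 to 124 FPKM in HFD KO and 86.4 to 157 FPKM in HFD WT, with a difference of -0.49 (SE 0.229, unadjusted p = 0.0501, limma adjusted p = 0.420). On chow, 0 of 10 passed, where 1.41% of all genes did (178 genes), and 0 of 10 had an unadjusted p under 0.05 against 1861 genes. Acadl had the smallest limma adjusted p there, 0.576, with a difference of -0.28 (SE 0.207). The median difference of the members was -0.10 on HFD and -0.06 on chow, beside 0.09 over all genes on each diet. For the interaction, which asks whether the genotype difference changes with diet, 0 of 10 members passed in limma (lowest adjusted p = 0.767) and 0 of 10 had an unadjusted p under 0.05, beside 0.292% of all genes past the threshold (37 genes) and 1284 genes with an unadjusted p under 0.05. These tests do not show that the genotypes act alike: the SE of a genotype difference ran from 0.125 for Hadha to 0.518 for Cpt1b on the log2 scale.

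In the rest of the pathway most calls on HFD were falls. Of the 17 other matrix enzymes of beta-oxidation, 14 fell and 0 rose in KO and 11 fell and 0 rose in WT, with median differences of -0.84 and -0.70. Hsd17b10, a short-chain hydroxyacyl-CoA dehydrogenase that also acts on isoleucine breakdown, averaged 45.5 ± 8.28 FPKM in HFD KO and 46.6 ± 8.43 FPKM in HFD WT, against 146 ± 29.1 FPKM in chow KO and 233 ± 11 FPKM in chow WT (SD, n = 4 each). It fell by 1.65 in KO (limma adjusted p = 2.05e-05) and by 2.31 in WT (limma adjusted p = 1.24e-06). On chow its difference between KO and WT was -0.69, short of the threshold (limma adjusted p = 0.0566) but called in 5 of 28 alternatives. Echs1, the short-chain enoyl-CoA hydratase, fell in both, with differences of -1.75 in KO and -1.30 in WT. So did the acyl-CoA dehydrogenase family members Acad11 (-1.0 in KO, -2.10 in WT) and Acad10 (-0.99 in KO, -1.22 in WT). The Acad11 call in KO was lost without HFD KO replicate 1 (limma adjusted p = 0.0772) or 3, or chow KO replicate 1, 3 or 4, while the counts of the list were the same without the 3 libraries with epididymal genes. Acaa2, the matrix thiolase that ends the round, stayed near 0 with differences of -0.04 and 0.01, and did not pass.

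The carnitine shuttle and acyl-CoA activation list was mixed. Of its 12 genes, 11 were tested; 2 rose and 2 fell in KO, and 1 rose and 2 fell in WT. Acsl5, a long-chain acyl-CoA synthetase, averaged 37.8 ± 4.20 FPKM in HFD KO and 39.7 ± 4.43 FPKM in HFD WT, against 25.5 ± 0.873 FPKM in chow KO and 25.2 ± 0.129 FPKM in chow WT, a difference of 0.55 in KO and 0.63 in WT that passed in both. Acsl4, the synthetase that prefers arachidonate, rose by 1.05 in KO and missed the threshold in WT at 0.57. Crat, the acetyltransferase that exports acetyl groups on carnitine, fell (-1.0 in KO, -0.74 in WT), as did Acot2, a matrix thioesterase (-0.40 in KO, -0.70 in WT). The Acot2 call in KO was lost without HFD KO replicate 1 (limma adjusted p = 0.114) or 3, or chow KO replicate 1 or 2. Without the 3 libraries with epididymal genes, 3 of the list rose and 3 fell in KO, and 4 rose and 3 fell in WT.

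Of 5 genes that set malonyl-CoA, the inhibitor of CPT1, all 5 fell on HFD in KO, and 3 (Acacb, Acaca and Mlycd) fell in WT. Acacb, the acetyl-CoA carboxylase at the outer membrane of mitochondria, averaged 10.5 ± 7.37 FPKM in HFD KO and 11.1 ± 6.25 FPKM in HFD WT, against 37.4 ± 14.3 FPKM in chow KO and 64.6 ± 9.60 FPKM in chow WT. It fell by 1.94 in KO (limma adjusted p = 0.00544) and by 2.57 in WT (limma adjusted p = 0.000756). The cytosolic carboxylase Acaca differed by -2.78 in KO and -1.65 in WT, and Mlycd, which breaks malonyl-CoA down, by -0.97 in KO and -0.42 in WT, with the WT call lost in 12 of 28 alternatives, among them the fits without HFD WT replicate 2 or 3 or any one chow WT library. The Acaca call in WT was lost without HFD WT replicate 2 or 3 (limma adjusted p = 0.0709 and 0.0845) or chow WT replicate 3 or 4. Acly, which makes cytosolic acetyl-CoA, differed by -1.27 in KO, and Fasn, the fatty acid synthase, by -2.09 in KO, a call lost in 10 of 28 alternatives, at its lowest -1.40 without HFD KO replicate 1 (limma adjusted p = 0.145). The Acly call in KO was lost with only the KO libraries in the fit (limma adjusted p = 0.0695). In WT the values were 0.85 for Acly and 0.11 for Fasn, short of the threshold. That of Acly in WT passed with only the WT libraries in the fit (limma adjusted p = 0.00150), with constant sum scaling (limma adjusted p = 0.0461) and without chow KO replicate 1 (limma adjusted p = 0.0126) or 3 (limma adjusted p = 0.0268). On chow, Acly was higher in KO than in WT by 1.92 (202 ± 130 FPKM in chow KO, 44.0 ± 3.13 FPKM in chow WT; limma adjusted p = 0.0166), a call lost without chow WT replicate 2 (limma adjusted p = 0.0676) or 4 (limma adjusted p = 0.0596), or with only the chow libraries in the fit (limma adjusted p = 0.0529).

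Of 12 tested regulators of oxidation genes, out of 13 listed, 0 rose and 8 fell in KO, and 1 rose and 6 fell in WT. Pparg, the master regulator of adipocytes and itself an adipocyte marker, averaged 49.7 ± 13.8 FPKM in HFD KO and 63.7 ± 30.0 FPKM in HFD WT, against 147 ± 49.2 FPKM in chow KO and 149 ± 20.6 FPKM in chow WT. Its difference was -1.54 in KO and -1.33 in WT. Ncor1, a corepressor, fell (-0.39 in KO, a call lost with only the KO libraries in the fit at a limma adjusted p of 0.0517, and -0.81 in WT), as did Sirt3, a mitochondrial deacetylase (-0.97 in KO, -1.18 in WT). Tfam, which packages and helps transcribe mitochondrial DNA, fell by 0.61 in KO and was at -0.19 in WT, short of the threshold. Esrra, a nuclear receptor of oxidative metabolism, was the 1 that rose in WT, by 0.73.

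Of 12 listed target genes of PPARA outside beta-oxidation, 8 were tested. On chow 2 of them were lower in KO than in WT, Pdk4 among them, and 1 was called for the interaction, which Pdk4 missed (limma adjusted p = 0.0655) but passed without chow KO replicate 3 (limma adjusted p = 0.0460) or 4 (limma adjusted p = 0.0418). By diet, 2 rose (Pdk4 and Creb3l3) and 0 fell in KO on HFD, and 0 rose and 4 fell in WT, among them Ucp3, Vnn1 and Pdk4. Pdk4, the kinase that shuts pyruvate dehydrogenase, averaged 49.9 ± 29.0 FPKM in HFD KO and 49.4 ± 3.86 FPKM in HFD WT, against 17.9 ± 10.8 FPKM in chow KO and 124 ± 27.3 FPKM in chow WT. Thus it rose by 1.5 in KO (limma adjusted p = 0.0104), fell by 1.29 in WT (limma adjusted p = 0.0207) and was lower on chow in KO than in WT by a log2 difference of -2.92 (limma adjusted p = 0.00223). Its mean was highest in chow WT. So was the sum of 10 skeletal muscle markers, at 8.96 to 87.3 FPKM in HFD KO, 12.6 to 31.0 FPKM in HFD WT, 17.8 to 51.0 FPKM in chow KO and 129 to 281 FPKM in chow WT. The markers did not move as one. Ckm was at most 0.05 FPKM in chow WT, and Actn3 was 0.79 to 2.15 FPKM there and 0.65 to 3.42 FPKM in chow KO. Their mean log2(FPKM + 1) was highest in HFD KO replicate 2, at 1.66, against 1.37 to 1.46 in chow WT. Of these markers 2 were tested, and Acta1, the skeletal muscle actin, was lower in KO than in WT on chow (-4.42, limma adjusted p = 0.0138). Their part in the Pdk4 values was not tested. The fall of Pdk4 in WT was not called without chow WT replicate 2 (limma adjusted p = 0.0525) or 4 (limma adjusted p = 0.0578). Without chow KO replicate 2 and HFD KO replicate 4, the difference of Pdk4 in KO was 1.06 and passed (limma adjusted p = 0.0388). Without all 3 libraries with epididymal genes it was 0.54 and did not pass (limma adjusted p = 0.165). Nor did the difference of 1.5 with only the KO libraries in the fit (limma adjusted p = 0.0585). Without those 3 libraries 2 of the list rose and 4 fell in KO, and 1 rose and 4 fell in WT.

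Further lists gave the surroundings. Of 15 tested peroxisomal genes out of 16, 1 rose and 5 fell in KO, and 1 rose and 4 fell in WT. Scp2, a lipid carrier and thiolase, averaged 158 ± 83.2 FPKM in HFD KO and 149 ± 42.7 FPKM in HFD WT, against 343 ± 96.9 FPKM in chow KO and 396 ± 24.3 FPKM in chow WT. Amacr, Ech1 and Abcd2 fell with it in both genotypes, and Ehhadh, the peroxisomal bifunctional enzyme, in KO (-1.02, a call lost in 15 of 28 alternatives). Without the 3 libraries with epididymal genes, 2 peroxisomal genes rose and 7 fell in KO. The WT call of Abcd2 was lost without HFD WT replicate 2 or 3 or any one chow WT library. Acat1, a mitochondrial thiolase of ketone body turnover, fell by 0.88 in KO. Of 16 genes of general mitochondrial content, 11 fell and 0 rose in KO, while in WT 1 fell (Slc25a4) and 1 rose (Vdac2, by 0.53). Slc25a4, the ADP/ATP carrier, fell (-0.64 in KO, -0.75 in WT). Cs, citrate synthase, fell in KO (-0.82) and was at -0.25 in WT, short of the threshold, and Timm44 and Hspa9, parts of the import motor, fell in KO (-0.44 and -0.59). The calls of Acat1 and Hspa9 in KO were lost without HFD KO replicate 1 (limma adjusted p = 0.109 and 0.0622) or chow KO replicate 3, and that of Acat1 also without HFD KO replicate 3 or chow KO replicate 1 or 4. That of Vdac2 in WT was lost without HFD WT replicate 2 or 3 (limma adjusted p = 0.105 and 0.106) or chow WT replicate 2, 3 or 4. The interaction was called for 0 of the 16.

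Within HFD, the members followed the adipocyte markers to different degrees. An adipocyte score, the mean log2(FPKM + 1) of 15 markers, was 6.01, 7.71, 7.37 and 8.05 in HFD KO and 8.79, 7.21, 6.86 and 8.15 in HFD WT, and between 8.63 and 9.56 in the 8 chow libraries. Because diet separates the libraries, the relation was computed over the 8 HFD libraries alone; each genotype holds 4 libraries, too few for a value of its own. Decr1 followed the score most closely (Pearson r = 0.981, exact permutation p = 4.96e-05; Spearman rho = 0.976, exact permutation p = 0.000397). Acadm (r = 0.904) and Eci1 (r = 0.901) came next, then Acadl (r = 0.843), Cpt2 (r = 0.833), Acadvl (r = 0.786) and Hadhb (r = 0.728). Their Spearman rho ran from 0.667 for Hadhb to 0.952 for Eci1, and exact permutation p for Pearson r from 0.000372 for Eci1 to 0.0390 for Hadhb.

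Cpt1a alone ran the other way (r = -0.743, exact permutation p = 0.0345; rho = -0.905, exact permutation p = 0.00456). Hadha (r = 0.372, exact permutation p = 0.368; rho = 0.476, exact permutation p = 0.243) and Cpt1b (r = 0.509, exact permutation p = 0.207; rho = 0.810, exact permutation p = 0.0218) did not pass on r. Over the 10 relations, 8 passed a Benjamini-Hochberg adjusted exact permutation p under 0.05, with Cpt1a and Hadhb at 0.0487. The relation was not computed for all tested genes, so this count cannot be read as a trait of the members. Without the 2 libraries farthest from the median score, HFD KO replicate 1 and HFD WT replicate 1, r was 0.966 for Decr1, 0.965 for Eci1, 0.955 for Acadm, 0.918 for Acadl, 0.876 for Acadvl, 0.790 for Cpt2 and -0.759 for Cpt1a. It was 0.394 for Hadhb. With HFD KO replicate 4 left out, r for Hadhb was 0.871, and 0.796 when those 2 libraries were left out as well. With median-of-ratios scaling the relation of Cpt1a weakened to r = -0.585 (adjusted exact permutation p = 0.164). The mean log2(FPKM + 1) of the 10 macrophage markers was 7.54, 6.63, 7.17 and 5.97 in HFD KO and 5.82, 7.28, 7.34 and 6.77 in HFD WT, lowest where the adipocyte score was highest. Its part in these relations was not tested.

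**Figure D4:**
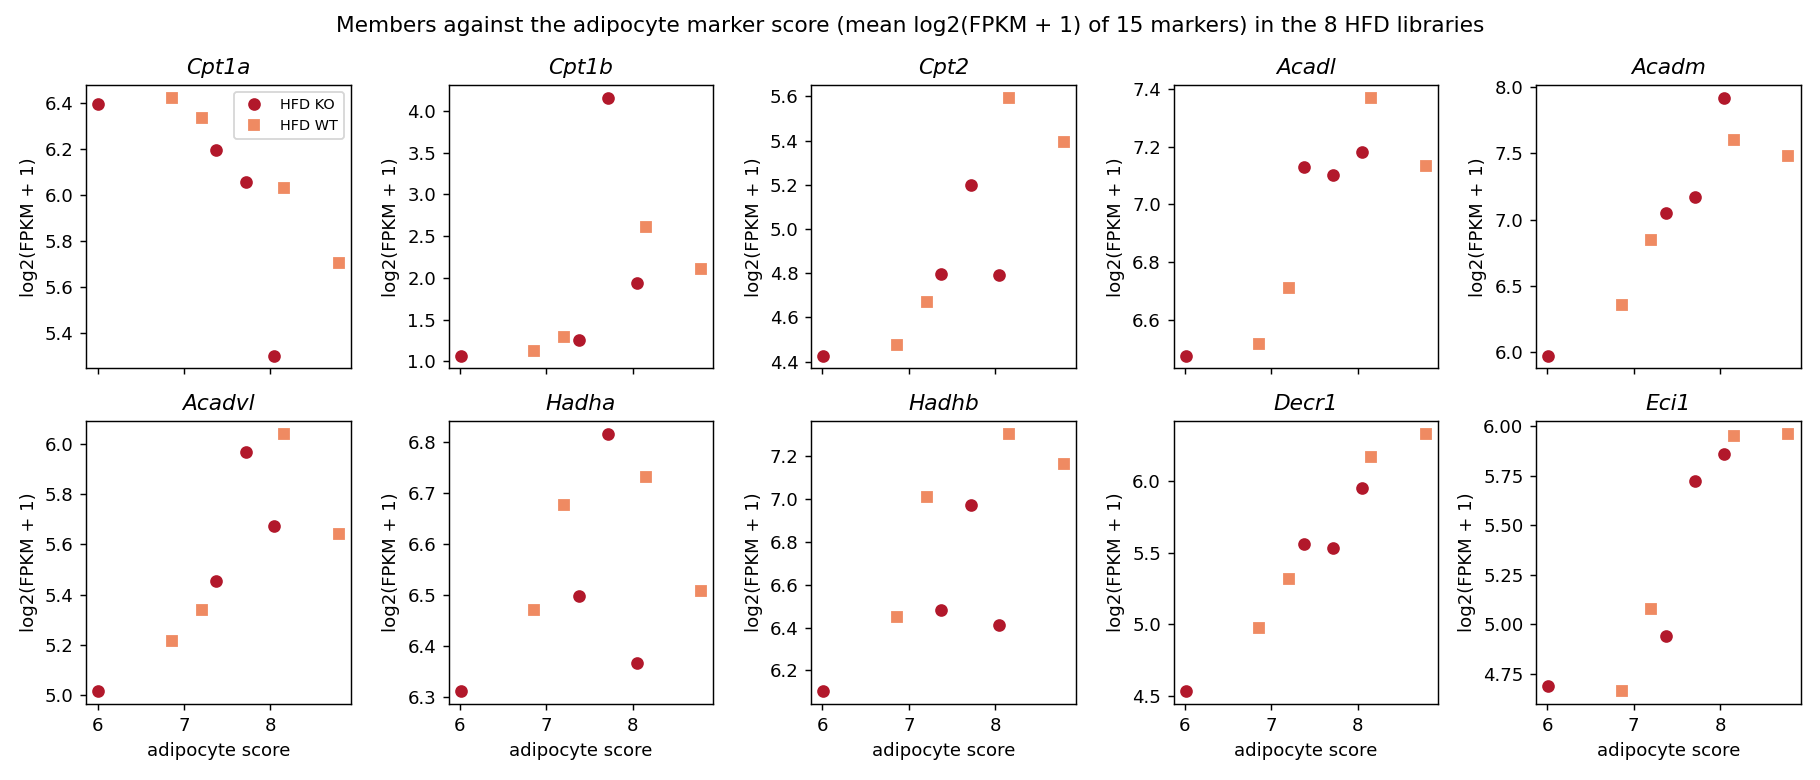
Each member's log2(FPKM + 1) against the adipocyte score (mean log2(FPKM + 1) of 15 markers) in the 4 HFD KO and 4 HFD WT libraries (points), with 1 vertical scale per gene. Decr1 climbs with the score almost in a line (r = 0.981), Hadha shows no clear slope (r = 0.372) and Cpt1a descends (r = -0.743).

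The genes most like the members over all 16 libraries, by Pearson r of log2(FPKM + 1), were sought among the tested genes. Members, predicted genes and clone names were left out of that search. For Cpt1a they were Ptpre (r = 0.989), Ap2a1 (r = 0.987) and Tuba1c (r = 0.981). Tuba1c averaged 76.0 FPKM in HFD KO and 80.9 FPKM in HFD WT, against 15.7 FPKM in chow KO and 9.76 FPKM in chow WT. For Cpt1b they were Unc79 (r = 0.971), Sparcl1 (r = 0.915) and Enho (r = 0.893). Unc79 averaged 2.65 FPKM in HFD KO and 1.42 FPKM in HFD WT, against 0.22 FPKM in chow KO and 0.37 FPKM in chow WT. Cpt1b itself was 16.8 FPKM in HFD KO replicate 2 and at most 5.08 FPKM elsewhere, and its r without that library was not computed. The other 8 members were averaged after each was centred on its mean and divided by its SD. For that profile they were Ptger3 (r = 0.926), Etfdh (r = 0.925) and Atf5 (r = 0.909). The libraries span both diets, so these values describe likeness in these samples and carry no p.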

How the data were processed

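RNA-seq libraries of eWAT (16, in 4 groups of 4) were compared. TRIzol RNA was turned into MGIEasy libraries and read in pairs on a BGI-seq machine, per the labels' protocols. The submitters' processing notes name STAR 2.7, GRCm38.p6 and mm10; for the FPKM, no program, annotation, filter or strand setting was given in the sources used here. All deposited FPKM were used as the authors gave them, scaled to length and library by the authors; read depth is unknown, so no counting interval is given. Of the rows, 20101 name genes and 14408 circular RNAs, which were left out, as was 1 row with no gene number; 26 symbols that had become dates were restored by Entrez number.

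Genes at 1 FPKM or more in 4 or more libraries (12667) were fitted as log2(FPKM + 1) with limma 3.58.1 in R 4.3.3, with 4 group means, all libraries in 1 fit and a variance trend. Fold differences on this scale understate low genes. The fit was tried on simulated data for HFD against chow in WT alone, with normal noise, no outlying library and no low gene among those changed. That trial says nothing of outlying libraries or of low genes such as Cpt1b. Ratios and correlations were tested by exact permutation in scipy 1.17.1. The members, lists and rules were chosen with earlier results of these data known. All members were named, with up to 4 genes of smallest p per list, genes called between genotypes and the 3 most alike genes per profile, except some listed genes that are not reported here. Fasn, Esrra, Vdac2, Abcd2, Ehhadh, Acat1 and Acaa2 were named after their values were seen. Positions are from GENCODE M21; promoter windows are from RefSeq on GRCm38.p6, with 8 of 10 members matched. Alternatives changed the scaling, pseudocount (0.1 or 0.5), filter (none, or a mean of 5 FPKM), trend, samples and replicate block. Leaving out 3 libraries together was added after seeing the data.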

Additional observations from a re-analysis of the deposited data

Results flagged for a closer look

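In 5 of 40 sets of 4 libraries (10 members in 4 groups), 1 library stood apart by Dixon's test at its critical value for 4 values; chance flags about 1 in 20 such groups. Cpt1b was 16.8 FPKM in HFD KO replicate 2 and 1.10 to 2.84 FPKM in the rest of its group, in the library that also held 67.2 FPKM of Ucp1. Cpt2 was 57.2 FPKM in chow KO replicate 1, against 31.0 to 32.6 FPKM in the rest of its group. Acadl was 87.9 FPKM in the first HFD KO library and 136 to 144 FPKM in the rest of its group, in the library with the lowest adipocyte score (6.01). Acadl was also low in chow KO replicate 2 (79.2 FPKM, against 121 to 124 FPKM), and so was Hadha (56.7 FPKM, against 69.7 to 71.8 FPKM); that library held 12552 FPKM of epididymal genes.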

How the results depend on the processing

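Cpt1a and Eci1 were called with the same sign in both diet comparisons in all 29 settings, and Hadha in WT in all 29 and in KO in 25. Of 1116 member values recomputed, 53 changed sign, 46 of them between genotypes and 0 of them of a value called at first. Members called in KO (5) became 3 with median-of-ratios scaling, 2 with only the groups compared and 3 to 5 with 1 library left out. In WT (3) they became 5 without chow KO replicate 2, HFD KO replicate 2 and HFD KO replicate 4. Calls over all genes by diet in KO (4922) became 5221, 3424 and 3717 to 5613 in those 3 settings. In WT (5304) they became 6435 without the 3 libraries. Cpt1b was called in KO in 9 of 28 settings and in WT in 4; the filter at a mean of 5 FPKM removed it. Genes called between genotypes on HFD (4) were 8 with median-of-ratios scaling, 8 with quantile normalization, 0 at a mean of 5 FPKM, 2 with only the groups compared, 14 without chow KO replicate 2 and HFD KO replicate 4, 40 without the 3 libraries, and 3 to 10 with 1 left out. On chow (178) they were 357 with only the groups compared and 55 to 231 with 1 left out, and for the interaction (37) 65 without the 3 libraries and 12 to 45 with 1 left out; the interaction has no value with only the groups compared. The replicate numbers did not pair the libraries (r of same-numbered deviations -0.63 to 0.37, 8 of 24 over 0.1). With a replicate block 4 members were called in KO, 3 in WT, 115 genes between genotypes on chow and 18 for the interaction. Over all genes, that block gave 4660 calls by diet in KO and 5048 in WT. Signs turned as follows, the cause not tested. Without chow KO replicate 2 and HFD KO replicate 4, KO against WT gave on HFD 0.092 for Cpt1a and -0.031 for Acadl, and on chow 0.15 for Acadm, 0.057 for Hadha, 0.11 for Hadhb, 0.053 for Decr1 and 0.051 for Eci1, and Acadl on HFD against chow in KO was -0.044. Leaving out HFD KO replicate 2 as well gave the same chow values and, on HFD, 0.17 for Cpt1a, -0.62 for Cpt1b and -0.13 for Acadl, with -0.14 for Acadl by diet in KO. Scaling to a constant sum gave 0.0091 for Cpt1a and 0.0060 for Hadha on chow; median-of-ratios scaling gave -0.0043 for Cpt2 on chow and -0.082 for Acadl on HFD. With 1 library left out, KO against WT on HFD ran from -0.28 to 0.092 for Cpt1a, -0.36 to 0.67 for Cpt1b, -0.10 to 0.20 for Acadl, -0.34 to 0.31 for Acadm, -0.18 to 0.14 for Acadvl and -0.36 to 0.095 for Eci1. On chow it ran from -0.37 to 0.15 for Cpt1a, -0.12 to 0.16 for Cpt2, -0.26 to 0.15 for Acadm, -0.055 to 0.057 for Hadha, -0.22 to 0.11 for Hadhb, -0.29 to 0.053 for Decr1 and -0.20 to 0.051 for Eci1. HFD against chow ran from -0.30 to 0.072 for Cpt2 and -0.28 to 0.0037 for Acadl in WT, and from -0.30 to 0.038 for Hadhb in KO. Leaving out those 3 libraries together was chosen after seeing the data. Of 54 calls of the pathway genes named, 15 were lost in 1 alternative or more and 0 changed sign. The number of members related to the adipocyte score (8) stayed within 1.5 times under the alternatives run, but not the members: Cpt1a was lost with median-of-ratios scaling, Hadhb with a score of Adipoq, Plin1, Lipe and Cidec alone (adjusted exact permutation p = 0.0554) and with Spearman's rho (adjusted exact permutation p = 0.0923), where Cpt1b passed (adjusted exact permutation p = 0.0272). FPKM carry no counts, so what depth limits cannot be read from them.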
